A study of Mus musculus with 9 samples.

Results

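The subcortical maternal complex is a group of oocyte-made proteins that lies beneath the cell surface of the mammalian egg and the cleavage embryo. The genes described here are *Padi6*, *Ooep*, *Tle6*, *Nlrp5*, *Khdc3*, *Nlrp4f*, *Nlrp2* and *Zbed3*, taken by gene symbol, and they are 8 of the 55335 entries of each library. All 8 were found, and 7 of them had a mean of at least 1 FPKM (fragments scaled to gene length and to the library's total) over all libraries and were tested. *Nlrp2* was below that level.

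RNA was measured in pools of mouse embryos at the 8-cell stage in 9 libraries, 3 for each of 3 groups. The embryos were made by in vitro fertilization of ICR oocytes, and siRNA at 25 µM was injected into the cytoplasm of the zygotes. Young ICR females were 6 to 8 weeks and males 10 to 20 weeks old. Embryos of the control group received nontargeting siRNA, those of the MFN1-KD group siRNA against *Mfn1*, a GTPase of the outer mitochondrial membrane that joins mitochondria, and those of the H3.3-KD group siRNA against *H3f3a* and *H3f3b*, the genes of the replacement histone H3.3. All groups share the mouse strain, the injection and the culture. A library is a pool, and the number of embryos behind it is uncertain, since the labels give 5 to 10 embryos per group and the methods 10. The labels do not say whether the pools of a group were injected on separate days, so p-values measure the spread between these libraries, which may be technical.

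In the oocyte OOEP, TLE6 and NLRP5 form the core of the complex, and KHDC3 binds to it. PADI6 is needed for the cytoplasmic lattices, fibres of the egg that store maternal proteins and ribosomal material, and the complex is part of them. Most of these transcripts are made while the oocyte grows and are cleared around the time when the embryo's own genome is activated, whereas the proteins last into the cleavage stages. The study stained PADI6, OOEP and TLE6 protein in MFN1-KD embryos. The values below are transcripts, so they answer whether the messages of the complex differed in the same knockdown and in the knockdown of H3.3.

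The siRNA targets were low in the groups named for them. *Mfn1* was at 9.54, 4.4 and 1.15 FPKM in MFN1-KD replicates 1, 2 and 3 and at 22.6 to 51.6 FPKM in control (log2 fold change −2.66, limma adjusted p = 0.0431, a call lost without control replicate 2 or 3, where 0 genes passed in MFN1-KD). *H3f3a* and *H3f3b* changed by −3.69 and −3.64 on the log2 scale in H3.3-KD, with limma adjusted p = 7.23e-06 and 8.96e-06. The number of genes above 0 FPKM was 21643 to 22507 in control, 23655 to 24820 in H3.3-KD and 15577 to 20842 in MFN1-KD, where replicate 3 had the lowest number. MFN1-KD replicate 3 stood apart in the members too: it was the lowest of the 9 libraries for 5 of the 7 members tested (*Padi6*, *Ooep*, *Tle6*, *Khdc3* and *Nlrp4f*), and it was the lowest for 33.5% of all genes tested. Each member's difference in MFN1-KD is therefore given with and without it. Of 15 markers fixed for the embryo after genome activation, 14 had a mean of at least 1 FPKM over all libraries and were tested. In single libraries 10 to 14 of the 15 were at 1 FPKM or more, and 3 were listed at 0 in MFN1-KD replicate 3. Their summed FPKM was 552 to 1869 per library, of which *Dppa2* alone held 337 to 981. Of 12 cumulus and granulosa cell genes, 1, *Amhr2*, reached a mean of 1 FPKM. It rose in H3.3-KD (43.2, 38.0 and 66.1 FPKM, and 16.1 to 29.8 in control, log2 fold change 1.11, limma adjusted p = 0.0327). The other genes of this list were each at most 0.55 FPKM in H3.3-KD. Of the 12, 4 to 6 were listed at 0 in H3.3-KD against 8 to 10 in control, and more of all genes were above 0 FPKM in H3.3-KD too, as given above. The part of cumulus or granulosa cells in the rises of *Khdc3* and *Zbed3* below was not tested. The 6 sperm genes summed to at most 2.93 FPKM in any library. In pooled embryos, fewer cells and less RNA of a gene per cell cannot be told apart.

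The sequences before the start sites of *Padi6*, *Khdc3* and *Zbed3* are shown because these are the members with the largest differences. RefSeq (GRCm38.p6) gave at least 1 start site for 8 of 8 members, 12 windows in all, and the 250 bases before each were searched for 5 motifs on both strands. Of 32851 windows of the same length before all RefSeq start sites, 12.4% hold the TATA box, spelled TATAAA, and 32.7% hold the GC box, spelled GGGCGG. The CCAAT box is in 33.8% of the windows, the E-box (CANNTG, any base at N) in 66.2% and the homeobox core, TAATTA, in 4.8%. Capitals mark the matches. The *Padi6* window is chr4:140742644-140742893 on the minus strand, and the first *Zbed3* window is chr13:95323355-95323604 on the plus strand. For *Khdc3*, chr9:73102205-73102397 on the plus strand is shown, the 193 bases of the window that lie outside annotated exons.
Padi6: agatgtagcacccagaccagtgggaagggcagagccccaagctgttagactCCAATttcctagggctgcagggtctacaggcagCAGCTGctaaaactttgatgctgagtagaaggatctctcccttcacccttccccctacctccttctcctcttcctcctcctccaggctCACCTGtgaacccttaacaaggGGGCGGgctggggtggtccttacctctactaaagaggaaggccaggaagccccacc
Khdc3: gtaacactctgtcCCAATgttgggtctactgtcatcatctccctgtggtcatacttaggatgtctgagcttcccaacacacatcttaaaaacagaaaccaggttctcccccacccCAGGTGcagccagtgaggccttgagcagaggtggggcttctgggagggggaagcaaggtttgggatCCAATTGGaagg
Zbed3: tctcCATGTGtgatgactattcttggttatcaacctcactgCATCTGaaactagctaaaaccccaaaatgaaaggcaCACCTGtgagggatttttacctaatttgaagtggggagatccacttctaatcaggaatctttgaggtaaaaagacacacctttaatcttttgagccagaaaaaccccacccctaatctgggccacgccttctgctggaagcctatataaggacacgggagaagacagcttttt
The *Padi6* sequence holds 1 GC box, 1 CCAAT and 2 E-boxes, and the *Zbed3* sequence 3 E-boxes and none of the other motifs as spelled above. Near its end the *Zbed3* sequence reads tatataag, which is not an exact TATAAA. The second *Zbed3* window, not shown, holds 1 TATA box and 1 E-box, and the third 1 CCAAT and 1 E-box. The *Khdc3* stretch holds 3 CCAAT, of which the last 2 are the opposite strands of CCAATTGG and overlap 1 of its 2 E-boxes. A match is only a run of letters, and no binding was measured in these libraries.

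In control embryos the members spanned a wide range of levels. *Khdc3* was the most abundant at 22.8 ± 3.26 FPKM (SD, n = 3), followed by *Padi6* at 13.5 ± 1.00, *Tle6* at 6.07 ± 4.94, *Zbed3* at 4.57 ± 1.76, *Nlrp4f* at 4.49 ± 1.23, *Nlrp5* at 1.83 ± 0.42, *Ooep* at 1.62 ± 0.49 and *Nlrp2* at 0.20 ± 0.19 FPKM. The ranges of *Khdc3* and *Padi6* lay apart from each other and from all others. The ranges of *Tle6*, *Zbed3* and *Nlrp4f* overlapped, as did those of *Nlrp5* and *Ooep*, so the order within these sets is not resolved by 3 libraries.

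**Figure D1:**
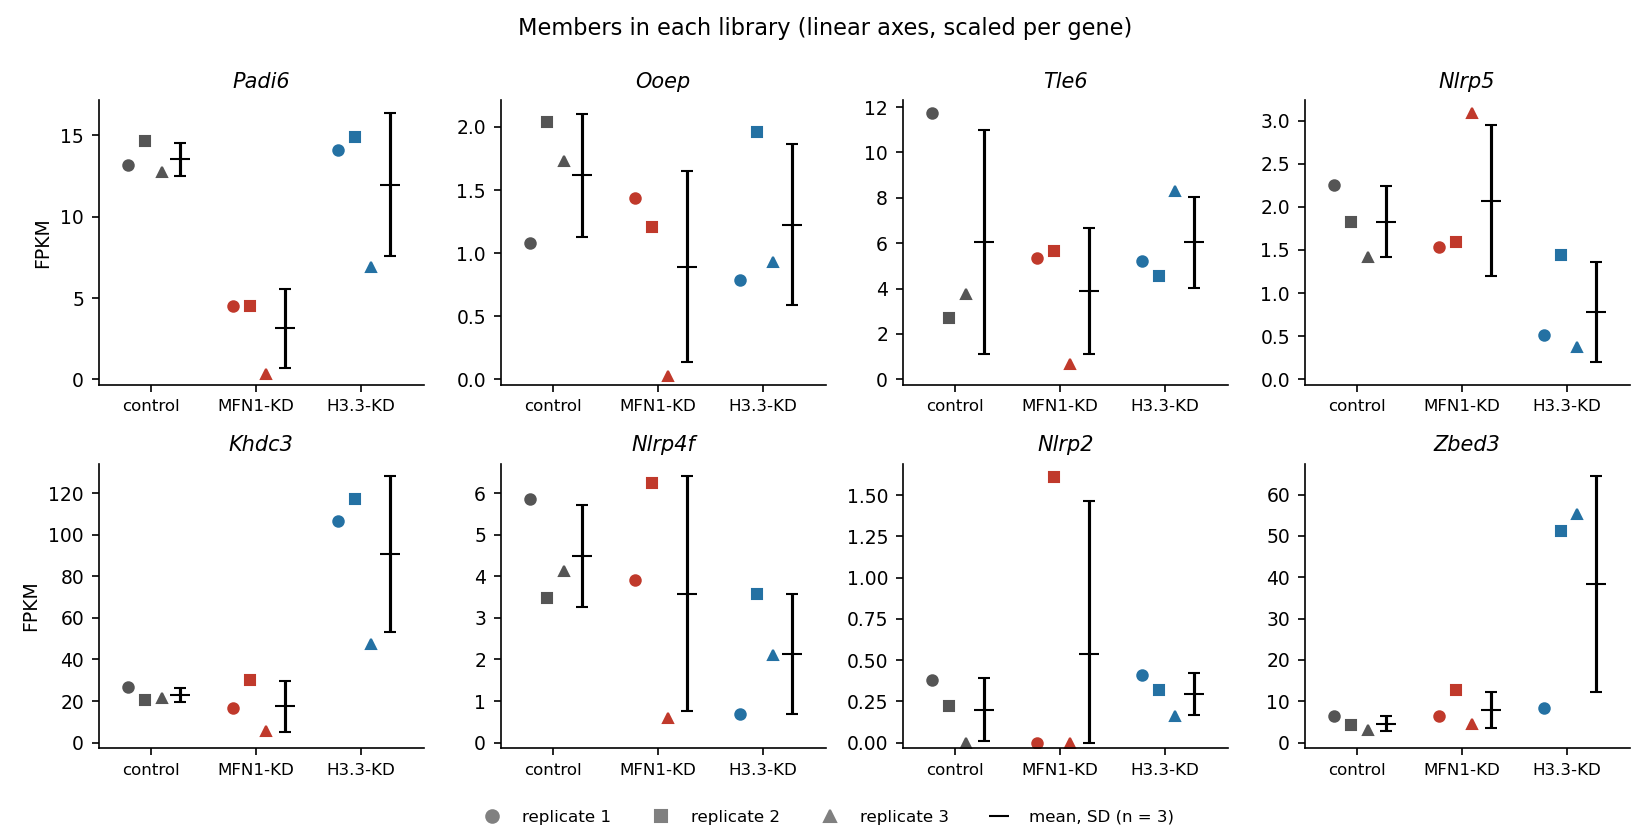
FPKM of each member (vertical axes, linear, scaled for each gene) in the libraries of control, MFN1-KD and H3.3-KD. Symbols are libraries, and the bars beside them give the mean and SD (n = 3, stopped at 0). *Padi6* lies between 0.33 and 4.54 FPKM in MFN1-KD, below all other libraries, and *Khdc3* lies between 47.6 and 117 FPKM in H3.3-KD, above all others.

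*Padi6* encodes a member of the peptidylarginine deiminase family and lies on chromosome 4 (GRCm38, 140727355 to 140742643, minus strand). It was at 13.2, 14.7 and 12.8 FPKM in control replicates 1, 2 and 3. It was at 4.53, 4.54 and 0.33 FPKM in MFN1-KD, and at 14.1, 14.9 and 6.91 FPKM in H3.3-KD. All MFN1-KD libraries lay below all control and H3.3-KD libraries, and H3.3-KD replicate 3 lay between MFN1-KD and the rest. The MFN1-KD mean was 23.2% of control, and 33.5% of control without replicate 3.

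Against control, the log2 fold change of *Padi6* in MFN1-KD on the log2(FPKM + 1) scale was −2.08 (SE 0.54, 95% interval −3.27 to −0.89). The limma p was 0.0029 unadjusted and 0.0622 after Benjamini-Hochberg adjustment over 13011 genes, so it did not pass at an adjusted p under 0.05. It did pass the threshold of the study's methods, more than 2-fold with an unadjusted p under 0.05, which 14.1% of all genes tested passed. The study applied that threshold to results of DESeq2. Here and below it is applied to limma on log2(FPKM + 1), so the genes passing need not be the same. A two-sided exact permutation test gave p = 0.10, the smallest that 3 libraries against 3 allow. The difference was −1.39 without MFN1-KD replicate 3 (limma adjusted p = 0.075), and −2.42 without replicate 2 (limma adjusted p = 0.0471). Over all alternative settings the limma adjusted p ran from 0.0163 to 0.205, and it was under 0.05 in 2 of 18. *Mfn1* and *Padi6* were both lowest in MFN1-KD replicate 3, and how far this library's low gene number bears on *Padi6* was not tested.

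Of the 7 members tested, 0 were lower and 0 higher in MFN1-KD at a limma adjusted p under 0.05, where 2.2% of all genes tested were lower and 1.15% higher. At an unadjusted limma p under 0.05, *Padi6* was the only member of the 7 to pass, where 3025 of the 13011 genes tested passed. *Padi6* was also the only member whose MFN1-KD and control libraries did not overlap (1 of 7), whereas 28.2% of all genes tested did not overlap. The median log2 fold change was −0.55 over the members and −0.08 over all genes tested. Without MFN1-KD replicate 3 the medians were −0.02 and 0.01, and the counts of members past both thresholds were the same.

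The core members *Ooep*, *Tle6* and *Nlrp5* did not pass in either knockdown. *Ooep*, a small protein with a KH-like domain (chromosome 9, 78376109 to 78378725, minus strand), was at 1.08, 2.04 and 1.73 FPKM in control, at 1.44, 1.21 and 0.03 in MFN1-KD and at 0.79, 1.96 and 0.93 in H3.3-KD. The groups overlapped, and only MFN1-KD replicate 3 was below the range of the rest. Its log2 fold change was −0.55 (95% interval −1.49 to 0.40) for MFN1-KD, or −0.15 without replicate 3, and −0.25 (−1.19 to 0.69) for H3.3-KD. At about 1 FPKM the pseudocount of 1 shrinks such differences.

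*Tle6*, a relative of the Groucho co-repressors (chromosome 10, 81590904 to 81601073, minus strand), was the member that varied most among controls, at 11.7, 2.69 and 3.78 FPKM. It was at 5.33, 5.64 and 0.67 FPKM in MFN1-KD and at 5.23, 4.56 and 8.30 FPKM in H3.3-KD. Control replicate 1 was above and MFN1-KD replicate 3 below every other library. The log2 fold change was −0.56 (95% interval −1.91 to 0.79) in MFN1-KD, and 0.09 without MFN1-KD replicate 3. In H3.3-KD it was 0.17 (−1.18 to 1.53), and it turned to −0.10 with median-ratio scaling, so no direction is given for *Tle6*.

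*Nlrp5*, also called Mater, encodes a large leucine-rich repeat protein (chromosome 7, 23385889 to 23441922, plus strand). It was at 2.25, 1.82 and 1.42 FPKM in control, at 1.54, 1.59 and 3.09 in MFN1-KD, and at 0.51, 1.44 and 0.38 in H3.3-KD. MFN1-KD replicate 3, the lowest library for 5 other members, was the highest of all 9 for *Nlrp5*. For H3.3-KD the log2 fold change was −0.71 (95% interval −1.51 to 0.10, limma adjusted p = 0.167). In MFN1-KD it was 0.09 (−0.71 to 0.90), and −0.13 without replicate 3. The pseudogene *Nlrp5-ps*, listed separately, was at 0.38 to 3.3 FPKM over the 9 libraries, and how reads alike in both were divided is not given in the sources used here.

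*Khdc3*, also called Filia, encodes a KH-domain protein linked to genome stability in early embryos (chromosome 9, 73101836 to 73104438, plus strand). It was at 26.5, 20.4 and 21.6 FPKM in control and at 107, 117 and 47.6 FPKM in H3.3-KD. All H3.3-KD libraries were above all others, with replicate 3 the lowest of them. In MFN1-KD it was at 16.5, 30.0 and 5.69 FPKM, around the control range except for replicate 3 (log2 fold change −0.62, 95% interval −1.78 to 0.53, and −0.02 without replicate 3). *Khdc3* rose in H3.3-KD by a log2 fold change of 1.85 (SE 0.52, 95% interval 0.69 to 3.00, limma adjusted p = 0.0222), and the ratio of the group means was 3.96.

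*Zbed3*, a BED zinc-finger gene whose protein associates with the complex (chromosome 13, 95323612 to 95337841, plus strand), was at 6.50, 4.15 and 3.05 FPKM in control. It was at 8.25, 51.3 and 55.4 FPKM in H3.3-KD, so that replicate 1 lay just above the controls and replicates 2 and 3 far above them. In MFN1-KD it was at 6.51, 12.7 and 4.50 FPKM (log2 fold change 0.62, 95% interval −0.83 to 2.07, and 0.91 without replicate 3). *Zbed3* rose in H3.3-KD by a log2 fold change of 2.48 (SE 0.65, 95% interval 1.03 to 3.93, limma adjusted p = 0.0163), with a ratio of group means of 8.38. Without H3.3-KD replicate 1 the difference was 3.33. Two-cell marker genes are a set expressed in the burst of genome activation before this stage. They summed to 18.7, 375 and 105 FPKM in H3.3-KD replicates 1, 2 and 3 and to 15.5 to 23.0 FPKM in control. Within H3.3-KD both this sum and *Zbed3* were lowest in replicate 1. *Gm5662* alone was at 251 FPKM in H3.3-KD replicate 2. In MFN1-KD, where *Zbed3* overlapped control, the sum was 117, 83.1 and 31.8 FPKM in replicates 1, 2 and 3, each above control. Of the 9 two-cell genes tested, 0 passed at a limma adjusted p under 0.05, and their part in *Zbed3* was not tested.

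In H3.3-KD 2 of the 7 members tested were higher at a limma adjusted p under 0.05, where 21.8% of all genes tested were higher, and 0 were lower, where 9.12% were. The same 2 members passed the study's threshold, which 33.3% of all genes passed, and the same 2 had no overlap with control, as 53.4% of all genes did. The median log2 fold change was −0.23 over the members and 0.26 over all genes tested. With median-ratio scaling of the libraries the median of all genes was 0.00, and *Khdc3* and *Zbed3* were then at 1.52 and 2.18 (limma adjusted p = 0.0321 and 0.0229). Relative to the median of all genes as deposited they were higher by 1.59 and 2.22.

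The members differ in the GC content of their transcripts. In the longest transcript it was 57.9% for *Khdc3* and 53.9% for *Zbed3*, above those of 93.8% and 83.0% of all genes. It was 56.0% for *Tle6* and 53.2% for *Padi6*, which did not pass. *Nlrp5*, *Ooep* and *Nlrp4f* were at 47.2%, 46.3% and 41.8%. When the dependence of each library on GC content and length was taken out with splines, *Khdc3* was at 0.92 (limma adjusted p = 0.15) and *Zbed3* at 1.78 (limma adjusted p = 0.0585), so both lost the call, and *Nlrp5* was at −1.24 (limma adjusted p = 0.0315) and gained one. Both calls were also lost with no filter on low genes, without control replicate 2 or 3 and without H3.3-KD replicate 2, *Khdc3* without H3.3-KD replicate 1 and *Zbed3* without H3.3-KD replicate 3. With these libraries left out the limma adjusted p ran from 0.0516 to 0.0824. Each was under 0.05 in 13 of 19 alternatives. How far GC content or length bears on the rises of *Khdc3* and *Zbed3* was not tested.

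**Figure D2:**
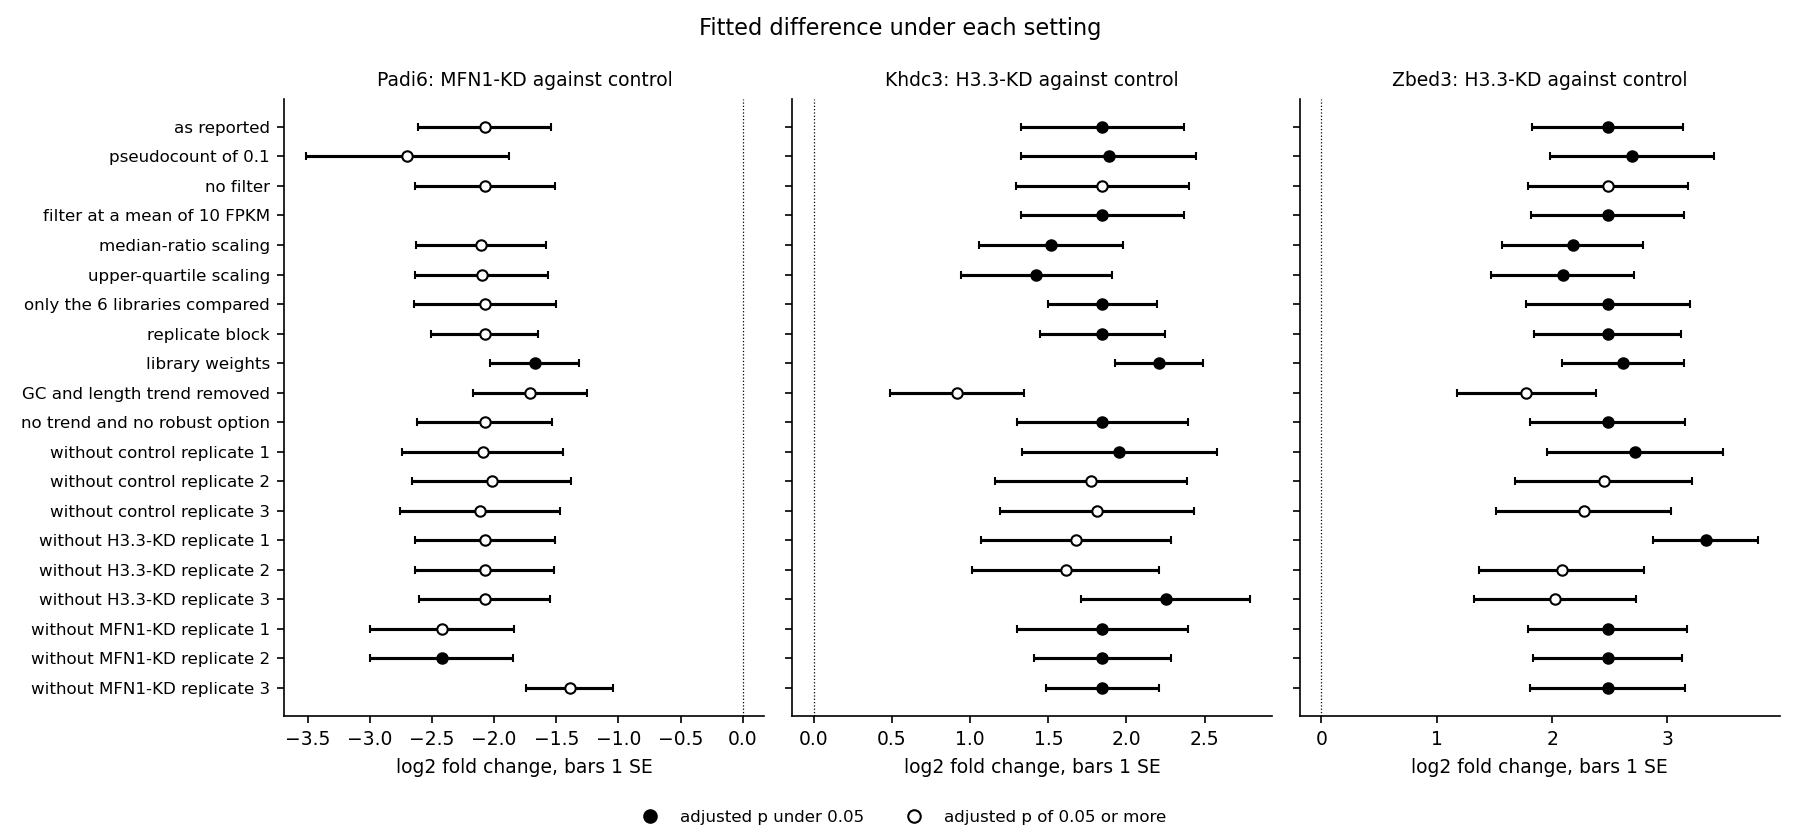
Fitted log2 fold change (horizontal axes, bars 1 SE) of *Padi6* in MFN1-KD and of *Khdc3* and *Zbed3* in H3.3-KD against control, as reported and under each alternative setting. Filled points have a limma adjusted p under 0.05. *Padi6* stays between −2.70 and −1.39, *Khdc3* between 0.92 and 2.25 and *Zbed3* between 1.78 and 3.33; *Padi6* has no point with the filter at 10 FPKM, which it did not pass.

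*Nlrp4f* and *Nlrp2* are further leucine-rich repeat members. *Nlrp4f* (chromosome 13, 65177111 to 65205977, minus strand) was at 5.86, 3.48 and 4.12 FPKM in control, at 3.92, 6.24 and 0.60 in MFN1-KD, and at 0.69, 3.58 and 2.11 in H3.3-KD. Its groups overlapped, with MFN1-KD replicate 3 and H3.3-KD replicate 1 lowest. The log2 fold change was −0.90 (95% interval −2.16 to 0.35) in H3.3-KD and −0.49 (−1.74 to 0.77) in MFN1-KD, and 0.14 in MFN1-KD without replicate 3. *Nlrp2* (chromosome 7, 5298547 to 5351035, minus strand) was listed at 0 in control replicate 3 and in MFN1-KD replicates 1 and 3, and at 0.16 to 0.41 FPKM in the other libraries except MFN1-KD replicate 2, which was at 1.61. At that level no difference was detectable.

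The difference between the knockdowns was tested directly, in the same fit, where the control libraries enter through the spread that all groups share. *Khdc3* was lower in MFN1-KD than in H3.3-KD by a log2 difference of −2.47 (SE 0.52, limma adjusted p = 0.0043), *Padi6* by −1.85 (SE 0.54, 0.0203) and *Zbed3* by −1.86 (SE 0.65, 0.0447). Thus 3 of 7 members were lower and 0 higher at a limma adjusted p under 0.05, where 27.6% of all genes tested were lower and 11% higher. With only the 6 knockdown libraries fitted, *Khdc3* alone passed (limma adjusted p = 0.0192, and 0.0604 for *Padi6* and 0.0903 for *Zbed3*). In the fit of all libraries the same 3 passed the study's threshold, which 40.1% of all genes passed. *Khdc3*, *Padi6* and *Nlrp5* had no overlap between the knockdowns (3 of 7, against 47.9% of all genes), and *Nlrp5* was the higher one in MFN1-KD (0.80, 95% interval −0.01 to 1.61, limma adjusted p = 0.106).

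The 3 members did not separate in the same way. For *Padi6* the MFN1-KD libraries were below control while H3.3-KD overlapped it, and for *Khdc3* and *Zbed3* the H3.3-KD libraries were above control while MFN1-KD overlapped it. Without MFN1-KD replicate 3 the values were −1.87 for *Khdc3*, −1.16 for *Padi6* and −1.57 for *Zbed3*, with limma adjusted p = 0.00584, 0.0264 and 0.135. With the GC and length trend removed they were −1.06, −0.71 and −0.70, and none passed (limma adjusted p = 0.0917, 0.272 and 0.418).

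**Figure D3:**
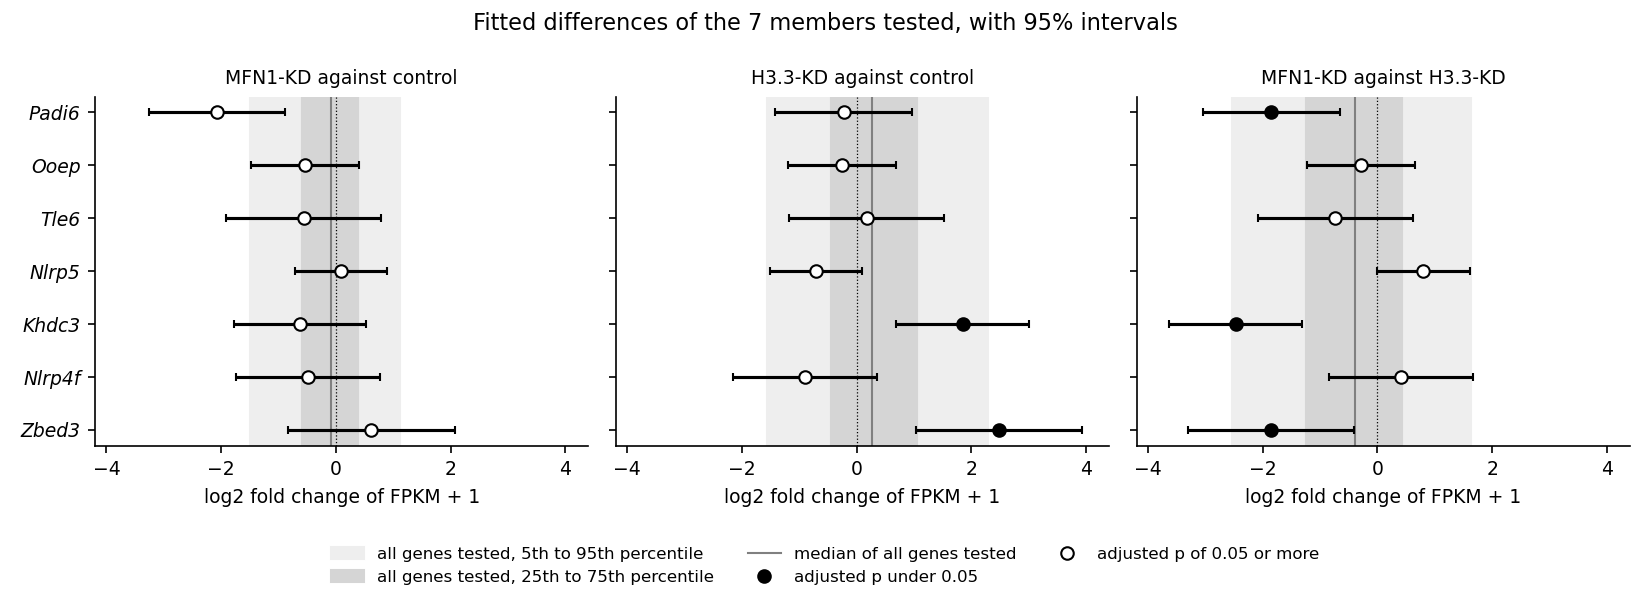
Fitted log2 fold change of log2(FPKM + 1) of the 7 members tested (horizontal axes, points with 95% intervals) for MFN1-KD against control, H3.3-KD against control and MFN1-KD against H3.3-KD. Shading shows the 5th to 95th and 25th to 75th percentiles of all genes tested, and filled points have a limma adjusted p under 0.05. *Padi6* lies left of the shading in MFN1-KD against control, and *Khdc3* and *Zbed3* are the filled points in H3.3-KD against control.

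A share within a library does not depend on how libraries are scaled. *Padi6* made up 19.5%, 29.7% and 26.3% of the members' summed FPKM in control, 11.4%, 7.14% and 2.21% in MFN1-KD, and its H3.3-KD shares were 10.3%, 7.63% and 5.68%. The sum also holds *Khdc3* and *Zbed3*, the members that rose in H3.3-KD. With both left out of the sum, a choice made after seeing the data, the *Padi6* share was 38.2%, 58.9% and 53.6% in control, 64.9%, 55.7% and 36.8% in H3.3-KD and 27.0%, 21.8% and 6.99% in MFN1-KD. On that sum H3.3-KD overlapped control and MFN1-KD stayed below both. The full sum was 48.5 to 67.5 FPKM in control, 14.9 to 63.6 in MFN1-KD and 122 to 195 in H3.3-KD. Without *Khdc3* and *Zbed3* the sum was 23.8 to 34.5 FPKM in control, 4.72 to 20.8 in MFN1-KD and 18.8 to 26.8 in H3.3-KD. *Khdc3* held 39.3% to 44.6% of the sum in control and 38.2% to 47.2% in MFN1-KD, and it ranged from 39.1% to 78.1% in H3.3-KD.

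**Figure D4:**
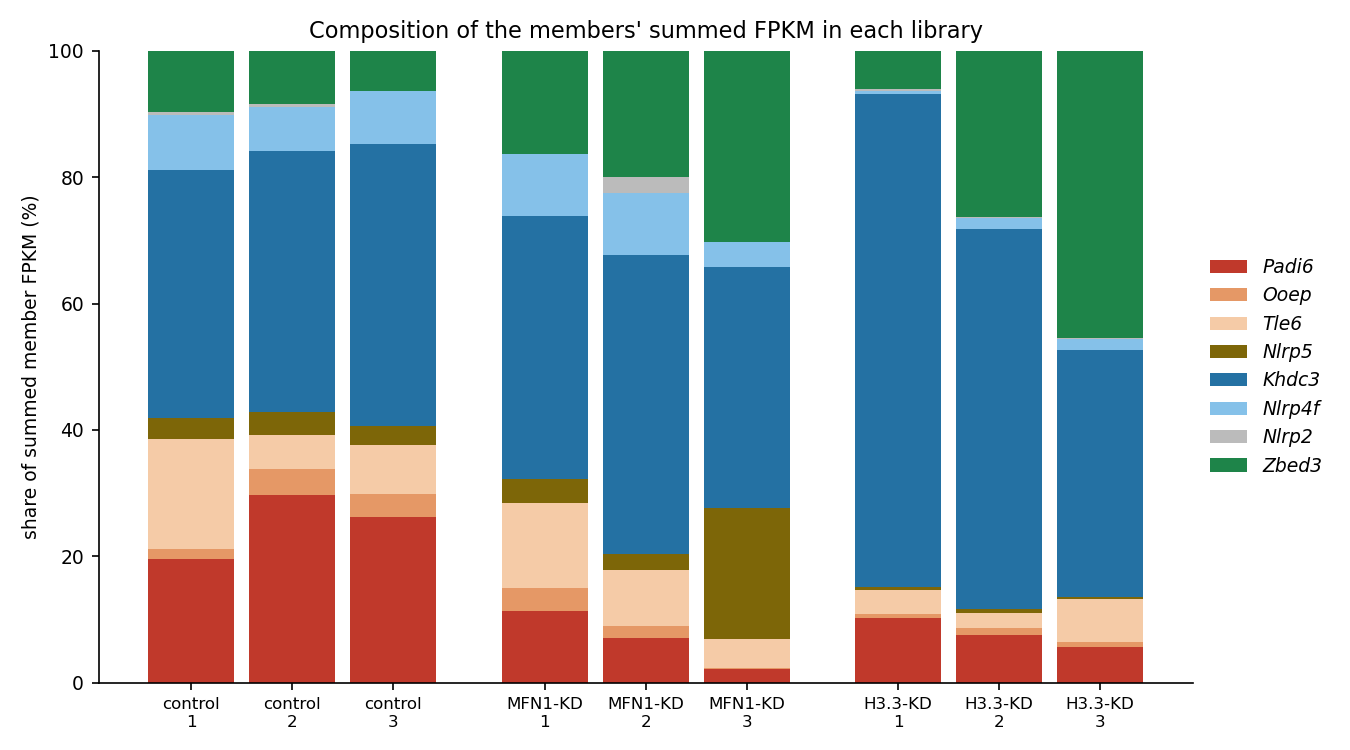
Share of each member in the members' summed FPKM (vertical axis, percent) in each library. The *Padi6* share is 19.5% to 29.7% in control and 2.21% to 11.4% in MFN1-KD, and *Khdc3* and *Zbed3* together fill most of the bars of H3.3-KD.

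Genes related to the members were taken from lists. The 4 other KH-domain genes of the *Ooep* and *Khdc3* family were all tested. In H3.3-KD 2 of them rose and 1 fell, where 21.8% of all genes tested were higher and 9.12% lower. *Khdc1a* was at 30.1, 21.9 and 22.1 FPKM in control and at 171, 153 and 85.9 FPKM in H3.3-KD (log2 fold change 2.37, limma adjusted p = 0.000667), and *Khdc1c* rose by 2.03 (limma adjusted p = 0.000544). *Dppa5a*, a gene of pluripotent cells, fell from a mean of 12791 to 5322 FPKM (log2 fold change −1.27, limma adjusted p = 0.00141). *Khdc1a*, *Khdc1b* and *Khdc1c* are close copies, so their separate values are uncertain where reads match more than 1 of them. None of the 4 passed in MFN1-KD.

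The 9 proteins reported with the complex or the lattice, such as cytoskeletal and ubiquitin ligase components, were all tested. Against control 0 of them passed in either knockdown at a limma adjusted p under 0.05. Among all genes tested, 2.2% were lower and 1.15% higher with MFN1-KD. The shares for H3.3-KD were 9.12% and 21.8%. Past the study's threshold, 1 partner was lower and 0 higher with MFN1-KD. The counts for H3.3-KD were 1 and 2. Between the knockdowns 3 were lower and 1 higher in MFN1-KD, where 27.6% of all genes tested were lower and 11% higher. *Cfl1*, which encodes the actin-severing protein cofilin, was at 185, 180 and 32.1 FPKM in MFN1-KD and at 621, 555 and 532 FPKM in H3.3-KD (log2 difference −2.46, limma adjusted p = 0.00593). It was also the partner that was lower than control past the study's threshold with MFN1-KD. That log2 fold change was −1.72 (limma adjusted p = 0.103), and the libraries did not overlap control. The tubulin genes *Tubb5* and *Tuba1b* differed by −2.16 and −1.82 (limma adjusted p = 0.0101 and 0.00619). *Skp1a*, a ubiquitin ligase subunit, was higher in MFN1-KD by 0.82 (limma adjusted p = 0.0124).

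**Figure D5:**
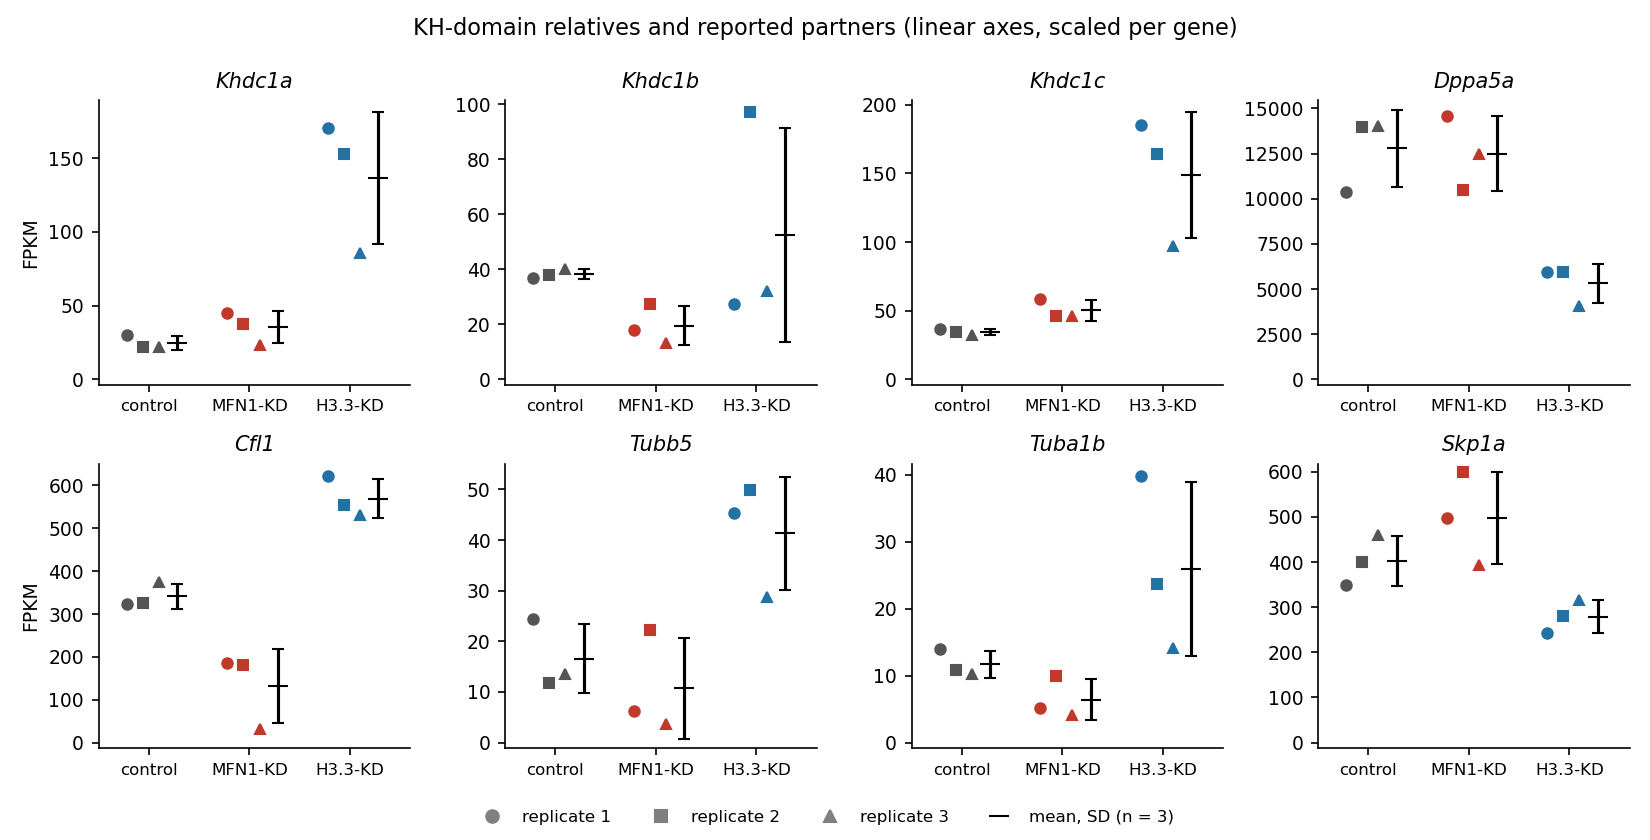
FPKM (vertical axes, linear, scaled for each gene) of the KH-domain relatives *Khdc1a*, *Khdc1b*, *Khdc1c* and *Dppa5a* and of the partners *Cfl1*, *Tubb5*, *Tuba1b* and *Skp1a* in the libraries of each group. Symbols are libraries and bars the mean and SD (n = 3); the *Khdc1a* and *Khdc1c* values of H3.3-KD lie above all others, and those of *Cfl1* in MFN1-KD below all others.

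Paralogs of the other members differed widely in level. Some were above the member in control, such as *Tle4* at a mean of 30.4 FPKM and *Zbed4* at 15.9 FPKM. The 4 other peptidylarginine deiminase genes *Padi1*, *Padi2*, *Padi3* and *Padi4* were at 0.00 to 1.81 FPKM in all libraries and were not tested, so *Padi6* was the only gene of its family above a mean of 1 FPKM. *Padi2* was at 0.08 to 0.16 FPKM in control and 1.17 to 1.69 in H3.3-KD, and *Padi4* at 0.21 to 0.76 and 1.41 to 1.81 FPKM. For these and *Padi3* every H3.3-KD library was above every control library (exact permutation p = 0.10 for each). Of all genes tested, 53.4% did not overlap between H3.3-KD and control in either direction. Of 16 other Nlrp genes 6 were tested and 0 passed in any comparison at a limma adjusted p under 0.05. Past the study's threshold, which 14.1% (MFN1-KD) and 33.3% (H3.3-KD) of all genes passed, *Nlrp4c* was lower than control in both knockdowns. Its log2 fold changes were −1.24 and −1.23, without overlap. *Nlrp14*, which is also 1 of the 9 partners above, was at 9.42 ± 0.60 FPKM (SD, n = 3) in control. It was at 7.59 ± 2.40 in MFN1-KD and at 4.76 ± 3.07 in H3.3-KD. The latter was also lower past that threshold (log2 fold change −1.01), without overlap. Of 5 Groucho relatives 4 were found and 3 tested, and *Tle3* rose in H3.3-KD (log2 fold change 1.46, limma adjusted p = 0.0357). *Tle4* was higher in MFN1-KD than in H3.3-KD by 1.72 (limma adjusted p = 0.0032). Of 3 other BED zinc-finger genes 2 were tested and 0 passed.

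Other maternal genes did not share one direction. Of 30 oocyte-stored genes outside the complex 24 were tested. In MFN1-KD 1 was higher and 0 were lower at a limma adjusted p under 0.05, against 1.15% and 2.2% of all genes tested. For H3.3-KD 2 were higher and 3 lower, against 21.8% and 9.12%. Past the study's threshold, MFN1-KD had 1 higher and 3 lower, and H3.3-KD had 2 of each. The 3 lower with MFN1-KD were *Tcl1* (log2 fold change −1.98, limma adjusted p = 0.08), *Oosp1* (−1.14, 0.109) and *Npm2* (−1.05, 0.113). Their libraries did not overlap control. *Dazl*, which encodes a germ-cell RNA-binding protein, was the gene that rose in MFN1-KD (log2 fold change 2.40, limma adjusted p = 0.0382), a call that was lost without control replicate 2, without control replicate 3 and with only the 6 libraries compared, where 0 genes passed in MFN1-KD. It also rose in H3.3-KD (2.68, limma adjusted p = 0.00299). It was at 4.07, 0.98 and 0.99 FPKM in control and at 7.28, 24.2 and 13.0 FPKM in MFN1-KD, and both comparisons share the control libraries. *Omt2b* and *Dppa3* fell in H3.3-KD (log2 fold changes −2.68 and −0.88, limma adjusted p = 0.000737 and 0.0025). The median of their log2 fold changes was 0.01 for MFN1-KD and 0.29 for H3.3-KD. Of the 14 markers of the embryo after genome activation that were tested, 7 rose and 1 fell in H3.3-KD. Of all genes tested, 21.8% were higher and 9.12% lower there. *Cdx2*, 1 of the 7, was at 0.57 to 6.24 FPKM in H3.3-KD and at most 0.09 FPKM in the other groups, so it was tested only through H3.3-KD. In MFN1-KD 0 of the 14 passed.

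The genes with the most similar profile to the members were sought among genes outside the complex with a mean of at least 10 FPKM, by Pearson correlation over 9 libraries with the mean of the members' standardised log2(FPKM + 1). The 5 highest were *Zwilch* (r = 0.94), *Aqr* (0.93), *Ggct* (0.92), *3110056K07Rik* (0.92) and *Pold2* (0.91). Spearman's rho of the same genes was 0.63 to 0.78, and 0 of the 5 were among the 5 highest by Spearman's rho. *Zwilch* was at 3.13 FPKM in MFN1-KD replicate 3 and at 11.2 to 19.8 FPKM in the other 8 libraries. The libraries share groups and gene numbers, so these correlations are a description and carry no p.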

How the data were processed

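RNA from pools of mouse 8-cell embryos was amplified by Smart-Seq2 with oligo-dT priming and sequenced as paired-end reads. Per the labels and the study's methods, the authors used cutadapt 1.16 for trimming and STAR for mapping, with mm10 as the genome. The values deposited by the authors are FPKM rounded to 2 decimals, 1 file per library. The program that made FPKM, the annotation, strand use and the handling of reads that match several genes are not given in the sources used here. No read counts were used here, so depth is unknown and no counting interval is given; low FPKM did not fall on whole reads (31.7% to 36.3% within 0.1 of a whole number at the best total), and an exact 0 is written as listed at 0. The test planned for counts could therefore not be run, and the one planned for FPKM was used.

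Genes averaging at least 1 FPKM over 9 libraries (13011) were fitted as log2(FPKM + 1) in limma 3.58.1 (R 4.3.3; trend and robust options), with 1 model for all libraries, no covariate, and Benjamini-Hochberg adjustment over all genes tested. The fold changes are on this scale, which understates changes of low genes. Exact permutation tests were two-sided. The pipeline was tested on simulated data. Positions, transcripts and GC content came from GENCODE M21 (GRCm38), start sites from RefSeq; other steps used Python 3.11.15, pandas 2.3.3 and matplotlib 3.10.9.

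Of the other lists, at most the 3 genes of lowest p, those with a mean of at least 10 FPKM and the siRNA targets are named. *Nlrp5-ps*, *Cdx2* and the Padi genes were named after their values were seen. The members and lists were chosen with earlier results of these data known. Alternatives were a pseudocount of 0.1, other filters and scalings, only the 6 libraries compared, a replicate block, library weights, removal of the GC and length trend, no trend option, and each library left out. Samples with the same replicate number did not deviate together throughout (r from −0.05 to 0.16). For different numbers r ran from −0.12 to 0.07, and the highest values, 0.16 and 0.14, were both of the same number. Whether the numbers pair the samples is therefore not settled by 3 replicates, and the main fit used no pairing.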

Additional observations from a re-analysis of the deposited data

Results flagged for a closer look

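In limma's test of the difference between MFN1-KD and H3.3-KD, 3 of the 7 members tested passed at an adjusted p under 0.05. All 3 were lower in MFN1-KD, where 27.6% of all genes tested were lower and 11% higher. *Padi6* differed by −1.85, *Khdc3* by −2.47 and *Zbed3* by −1.86 (MFN1-KD minus H3.3-KD, log2), with limma adjusted p = 0.0203, 0.0043 and 0.0447. The median over all genes tested was −0.39. For *Zbed3* the libraries of the knockdowns overlapped (exact permutation p = 0.20). Over the alternatives the limma adjusted p was under 0.05 in 12 of 18 for *Padi6*, 18 of 19 for *Khdc3* and 4 of 19 for *Zbed3*. Groups of 3 libraries are too small for a test of single outlying libraries.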

How the results depend on the processing

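Depth is unknown, groups hold 3 libraries, and members near 1 FPKM could not resolve small differences. In MFN1-KD against control, 1 member (*Padi6*) was lower with library weights, and 0 passed the study's threshold with the filter at 10 FPKM, which *Padi6* did not pass; with libraries left out 0 to 1 were lower and 1 to 2 passed the threshold (1 lower and 2 past it without MFN1-KD replicate 2). In H3.3-KD 0 were higher with no filter, where more genes are tested, and 0 higher and 1 lower (*Nlrp5*) with the GC and length trend removed; with libraries left out 0 to 2 were higher (0 without H3.3-KD replicate 2 and without either of control replicates 2 and 3). Between the knockdowns 1 was lower with no filter, 1 with upper-quartile scaling (1 higher), 1 with only the 6 libraries compared, 0 with the GC and length trend removed (1 higher), and 1 to 3 with libraries left out (1 without H3.3-KD replicate 2). Except where stated, the cause was not tested.

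Leaving *Khdc3* out of the sum moved the *Padi6* share to 43.4% for control, 12.2% for MFN1-KD and 25.1% for H3.3-KD, and leaving out *Zbed3* too, a choice made after seeing the data, to 50.2%, 18.6% and 52.4%. Signs that turned were of differences that did not pass. In MFN1-KD these were *Tle6* (0.32 with library weights, −0.92 to 0.093 with libraries left out), *Nlrp4f* (0.035, −0.94 to 0.14) and *Nlrp5* (−0.040, −0.13 to 0.21), with the change of sign in *Tle6* and *Nlrp4f* without MFN1-KD replicate 3 and in *Nlrp5* without it or without control replicate 3 (−0.015). In H3.3-KD they were *Tle6* (−0.10 with median-ratio scaling, −0.18 with upper-quartile scaling, −0.73 with the GC and length trend removed, −0.19 to 0.71 with libraries left out) and *Padi6* (−0.41 to 0.094 with libraries left out, above 0 without H3.3-KD replicate 3). Between the knockdowns they were *Ooep* (0.22 with the trend removed, −0.52 to 0.097 with libraries left out), *Tle6* (0.60 with the trend removed) and *Nlrp4f* (−0.041 to 1.05 with libraries left out). With the replicate block *Padi6* in MFN1-KD kept its log2 fold change of −2.08 with limma adjusted p = 0.0505, no count of members called changed, and the calls over all genes in MFN1-KD went from 436 to 31. That count was 0 without control replicate 2 (2002 genes at an unadjusted p under 0.05), without control replicate 3 (1986) and with only the 6 libraries compared (2724), 1 without H3.3-KD replicate 2, 2 with no filter and 1393 with library weights.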
